A study of Mus musculus with 4 samples.

Results

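The genes described here are 9 enzymes and regulatory subunits of fructose and glycogen metabolism, taken by gene symbol from a table of 24493 genes. They are Khk, Gys1, Gys2, Pygl, Pygb, Gbe1, Ugp2, Ppp1r3b and Ppp1r3c, and each had 1 row. RNA sequencing measured them in 4 cultures of mouse liver cells. The Hep_3D group held 2 libraries of hepatocytes in 3D culture. The Bil_2D group held 2 libraries of hepatocyte-derived biliary cells in 2D culture. All 4 libraries were labelled C57BL/6 with hepatocytes as their source, no treatment was applied, and the animals' age and sex were not given in the sources used here. Each group had 1 library of clone 15C7 (replicate 1) and 1 of clone 19H5 (replicate 2), so each state was seen in 2 clones only. Hepatocytes were grown in 3D and biliary cells in 2D throughout, so cell state and culture format cannot be told apart.

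Glycogen is the branched glucose polymer in which the liver keeps sugar between meals. Its building block, UDP-glucose, is made by the pyrophosphorylase Ugp2. Glycogen synthase adds it to the growing chain and the branching enzyme Gbe1 makes the branch points. Phosphorylase takes the chain apart again. Both key enzymes exist as tissue forms: Gys2 is the liver synthase and Gys1 the form of muscle and most other tissues, while Pygl, Pygb and Pygm are named for liver, brain and muscle. The Ppp1r3 proteins tether protein phosphatase 1 to glycogen, where it activates synthase and inactivates phosphorylase. Fructose enters liver metabolism through ketohexokinase (Khk), which makes fructose 1-phosphate, and later steps, triokinase among them, carry it on to the triose phosphates.

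Values were TPM, a length-corrected share that sums to 1000000 in every library, so sequencing depth and counting error were unknown. The 12336 genes that reached 1 TPM in 2 or more libraries were tested with limma on log2(TPM + 1), and adjusted p-values (Benjamini-Hochberg, over all genes tested) were called under 0.05. The most abundant 50 genes took 46.6% and 48.4% of TPM in Hep_3D, against 22.4% and 24.8% in Bil_2D, and log2 fold changes of all genes had a median of -0.73. Each result is therefore also given on a size-factor scale, where each library's TPM is divided by a median-of-ratios factor, which moved a gene's fold change by a median of 0.76 and left the median of all genes at -0.02. Fold changes are Hep_3D minus Bil_2D, and "rose" and "fell" refer to TPM values that passed the test. Summed hepatocyte markers stood at 48953 and 47155 TPM in Hep_3D, against 1833 and 282 TPM in Bil_2D. Of the 8 listed, only Cyp2e1 overlapped (1.96 and 3.53 TPM in Hep_3D, against 2.04 and 2.55 TPM in Bil_2D). Hnf4a had 244 and 237 TPM in Hep_3D and still 137 and 84.3 TPM in Bil_2D. Summed biliary markers stood at 13150.5 and 9451 TPM in Hep_3D, against 5799 and 9355 TPM in Bil_2D. Of the biliary markers, Krt19 had 1.12 and 15.9 TPM in Hep_3D, against 752 and 1615 TPM in Bil_2D. Spp1 was higher in Hep_3D (13093 and 9284 TPM, against 4176 and 6092 TPM), while Epcam reached at most 2.59 TPM and Cftr at most 0.0797 TPM in any library. Endothelial markers summed to at most 0.371 TPM. Those of macrophages and leukocytes summed to 2.46 and 2.8 TPM in Hep_3D and 6.09 and 13.3 TPM in Bil_2D, nearly all from Cd68 and Csf1r, with Ptprc under 0.06 TPM throughout.

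Genes for fructose phosphorylation, glycogen branching, the liver synthase and the phosphatase-tethering subunits Ppp1r3b and Ppp1r3c were higher in the hepatocyte cultures. The muscle-type synthase was lower in TPM. Of the 9 genes, 8 reached the level needed for a test. On the TPM scale 5 rose (Khk, Gys2, Gbe1, Ppp1r3b and Ppp1r3c) and 2 fell (Gys1 and Pygb), while 6.8% of all genes tested were called higher and 51.9% lower. After size-factor scaling 6 were called higher, the same 5 and Ugp2, and 0 lower by limma (1 at an unadjusted p under 0.05). The shares of all genes there were 11.9% higher and 9.54% lower. With clone as a block, which pairs the libraries of 1 clone, 4 rose and 2 fell on the TPM scale (all genes 7.93% and 58.1%). With both that block and size factors, 4 were called higher and 1 lower (all genes 14.1% and 11.7%). Gys2 entered the test through its Hep_3D values alone, so its call follows in part from the filter. Leaving out Hep_3D replicate 2 left 3 that rose, and leaving out Bil_2D replicate 1 or Bil_2D replicate 2 left 2. Of the genes that fell, Gys1 kept its call without Hep_3D replicate 2, and neither kept it without any other single library. In such bulk cultures, fewer cells that express a gene and less RNA per cell cannot be told apart.

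**Figure D1:**
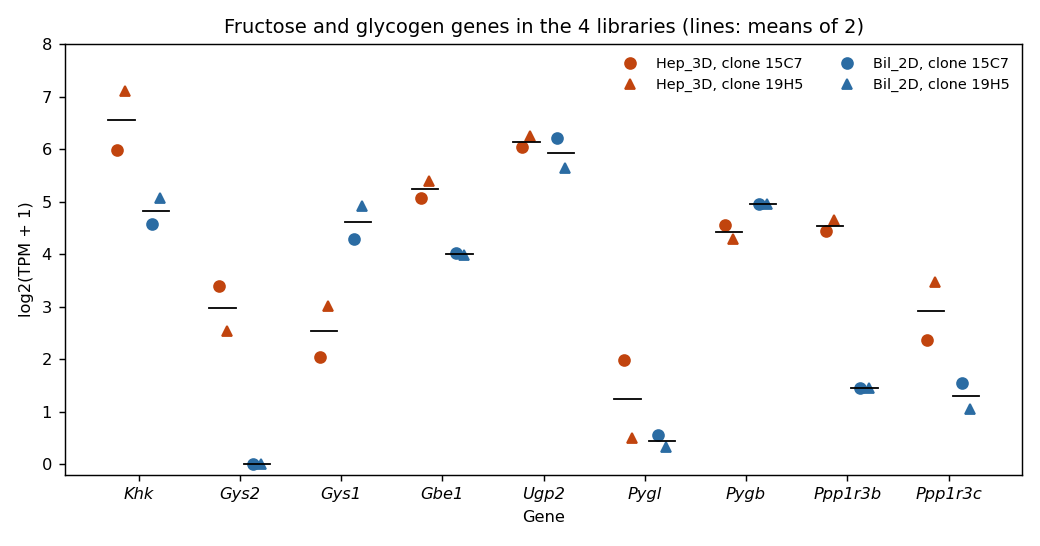
Levels of the 9 genes as log2(TPM + 1) on the vertical axis, with 1 point per library. Orange marks Hep_3D and blue Bil_2D, circles clone 15C7 and triangles clone 19H5, and each line is the mean of 2 libraries. Khk, Gys2, Gbe1, Ppp1r3b and Ppp1r3c lie higher in both Hep_3D libraries than in both Bil_2D libraries, Gys1 and Pygb lie lower, and Ugp2 and Pygl overlap.

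Ketohexokinase was the fructose enzyme of the set. Khk (ENSMUSG00000029162.15, chromosome 5, 30921431 to 30931248, plus strand, GRCm38) had 62.4 TPM (replicate 1) and 137 TPM (replicate 2) in Hep_3D, against 22.9 and 32.7 TPM in Bil_2D. Both Hep_3D libraries lay above both Bil_2D libraries, and clone 19H5 was the higher one in each state. The gene averaged 99.7 ± 52.8 TPM in Hep_3D and 27.8 ± 6.94 TPM in Bil_2D (SD, n = 2 each), a rise of 1.72 on the log2 scale (SE 0.44, limma adjusted p = 0.0299). With size factors the rise was 2.52 (adjusted p = 0.0322). The call was lost without Hep_3D replicate 2 (adjusted p = 0.0668), Bil_2D replicate 1 (0.131) or Bil_2D replicate 2 (0.0797), and without the filter on low values (0.0559). Khk is made as alternative splice forms with different affinity for fructose, and the deposited gene-level values do not separate them.

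Other fructose genes rose as well. Of the list for fructose entry and breakdown, 8 of 9 genes were tested and 5 rose, Khk among them, and 0 fell by limma (1 at an unadjusted p under 0.05). Of all genes tested, 6.8% were called higher and 51.9% lower. The list's median log2 fold change was 1.84, against -0.73 for all genes tested. On the size-factor scale 6 of the list were called higher, beside 11.9% of all genes, with a list median of 2.64 against -0.02 for all genes. Fewer were called on that scale when any single library was left out. Only 2 rose without Hep_3D replicate 2, and 3 without either Bil_2D replicate. Tkfc, the triokinase that phosphorylates glyceraldehyde, had 95.2 and 171 TPM in Hep_3D, against 39.7 and 25.5 TPM in Bil_2D (log2 fold change 1.97, limma adjusted p = 0.0147). That call was lost without Hep_3D replicate 2 (0.0548), Bil_2D replicate 1 (0.0506) or Bil_2D replicate 2 (0.0699). Sord, which makes fructose from sorbitol, had 291 and 353 TPM in Hep_3D, against 28.3 and 22.2 TPM in Bil_2D (3.62, adjusted p = 0.00312). It was called under each of the 19 alternatives run. Glyctk, glycerate kinase, had 84.3 and 48 TPM in Hep_3D, against 10.4 and 4.98 TPM in Bil_2D (2.97, adjusted p = 0.00905). The size-factor call of Glyctk was lost with any single library left out (fold changes from 3.30 to 4.14). The intestinal fructose transporter Slc2a5 was at most 0.418 TPM in any library and was not tested. Slc2a2, the glucose and fructose carrier of hepatocytes, had 3.95 and 4.28 TPM in Hep_3D, against 3.38 and 1.66 TPM in Bil_2D. Slc2a2 missed the threshold on both scales (limma adjusted p = 0.168, or 0.0519 with size factors). It was named after its values were seen, as was Slc2a5.

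Of the glycogen synthases, Gys2 was detected in the Hep_3D libraries only, while Gys1 was present in every library. Gys2 (ENSMUSG00000030244.7, chromosome 6, 142422613 to 142473109, minus strand) had 9.49 and 4.81 TPM in the Hep_3D libraries and was listed at 0 in both Bil_2D libraries. With Bil_2D at 0 no fold is given, and the limma test gave an adjusted p of 0.00675, or 0.0111 with size factors. The size-factor call was lost without Bil_2D replicate 1 or Bil_2D replicate 2. Gys1 (ENSMUSG00000003865.16, chromosome 7, 45434844 to 45456619, plus strand) had 3.14 and 7.07 TPM in Hep_3D, against 18.6 and 29.1 TPM in Bil_2D. Each Hep_3D library was lower than each Bil_2D library, and clone 19H5 was the higher one in both states. Gys1 averaged 5.11 ± 2.78 TPM in Hep_3D and 23.9 ± 7.45 TPM in Bil_2D (SD, n = 2 each) and fell by 2.07 on the log2 scale (SE 0.42, limma adjusted p = 0.0172). With size factors the value was -1.34 and did not pass (adjusted p = 0.108), although it passed there with the clone block (0.0263). The TPM-scale call was also lost without Hep_3D replicate 1 (0.0537), Bil_2D replicate 1 (0.0571) or Bil_2D replicate 2 (0.0844).

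Within a library the share of each synthase in their summed TPM does not depend on scaling between libraries. Gys2 made up 75.1% and 40.5% of the summed synthase TPM in Hep_3D (clones 15C7 and 19H5), against 0% and 0% in Bil_2D. The log2 ratio of Gys2 to Gys1 was tested after adding 1 TPM to each gene, so it is not free of scaling. Its exact two-sided permutation test over the 4 libraries gave p = 0.333, the smallest that 2 against 2 can give. The liver form was thus the larger one in Hep_3D replicate 1 and the smaller one in Hep_3D replicate 2. Summed synthase TPM was 12.6 and 11.9 in Hep_3D, against 18.6 and 29.1 in Bil_2D. After size-factor scaling the sums were 16.5 and 16.1 in Hep_3D, against 13.6 and 22.5 in Bil_2D, and the groups overlapped. Of the 31-base words in annotated Gys2 transcripts (GENCODE M21), 0 of 2657 occurred in transcripts of another gene. For Gys1, 344 of 4835 did, 260 of them in Ruvbl2, a helicase gene that overlaps Gys1 on the other strand. The strand setting of the quantification was not given in the sources used here, so reads of that stretch cannot be told apart. Ruvbl2 had 21.6 and 18.9 TPM in Hep_3D, against 62.9 and 68 TPM in Bil_2D (log2 fold change -1.65, limma adjusted p = 0.00513, or -0.85 and 0.0281 with size factors). Its part in the Gys1 values was not tested. Skeletal muscle markers summed to 1.45 and 1.24 TPM in Hep_3D, against 13.1 and 1.32 TPM in Bil_2D, of which Acta1 held 11.9 TPM in Bil_2D replicate 1, and Tnnt3 and Mb were listed at 0 in all 4 libraries.

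**Figure D2:**
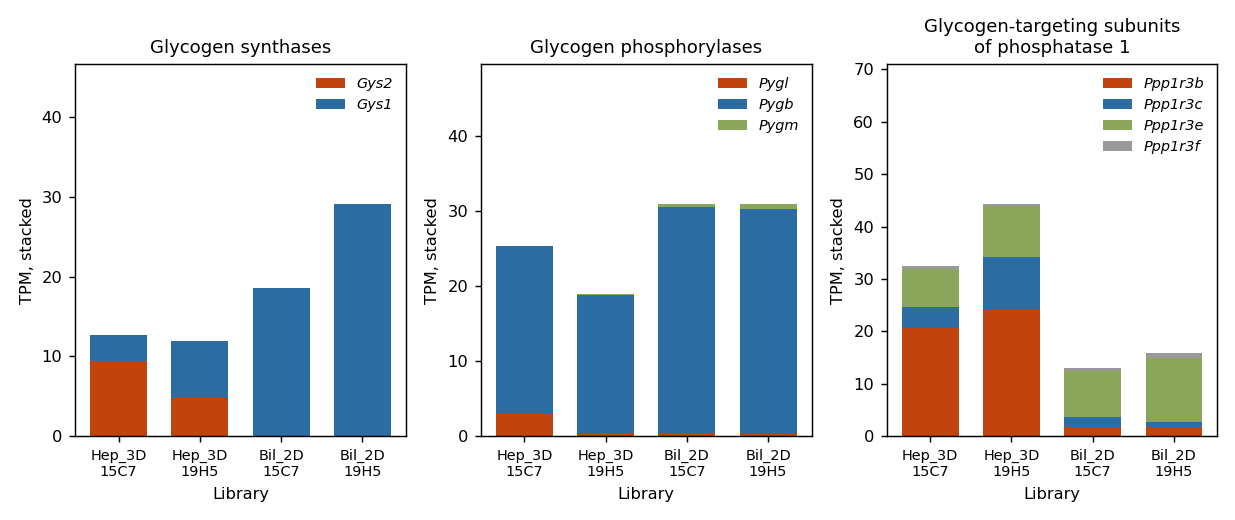
Stacked bars of TPM per library for the synthases, the phosphorylases and the glycogen-targeting subunits of phosphatase 1, with Hep_3D libraries left of Bil_2D libraries. Gys2 appears in the Hep_3D bars only, Pygb fills most of every phosphorylase bar, and Ppp1r3b is the largest part of the subunit bars in Hep_3D and a small part in Bil_2D. Ppp1r3a, Ppp1r3d and Ppp1r3g, each at most 0.288 TPM, are not drawn.

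Of the enzymes on either side of synthase, Gbe1 rose in TPM and Ugp2 did not, while both were called higher with size factors. Gbe1 (ENSMUSG00000022707.16, chromosome 16, 70313949 to 70569716, plus strand) had 32.7 and 41.1 TPM in Hep_3D, against 15.3 and 14.8 TPM in Bil_2D. The Bil_2D libraries were nearly alike and the groups lay well apart. Gbe1 averaged 36.9 ± 5.9 TPM in Hep_3D and 15.1 ± 0.375 TPM in Bil_2D (SD, n = 2 each), a rise of 1.23 on the log2 scale (SE 0.17, limma adjusted p = 0.00824). With size factors it was 2.01 (adjusted p = 0.00849). The call was lost without Bil_2D replicate 1 (0.0513) or Bil_2D replicate 2 (0.0528).

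Ugp2, the most abundant of the 9 genes in 3 of the 4 libraries, sits before synthase and also supplies UDP-glucose for glucuronidation. Ugp2 (ENSMUSG00000001891.16, chromosome 11, 21321138 to 21371201, minus strand) had 64.6 and 75 TPM in Hep_3D, against 72.6 and 48.8 TPM in Bil_2D. The groups overlapped. The log2 fold change was 0.22 (SE 0.24, limma adjusted p = 0.452), and it was 1.03 on the size-factor scale, where it passed (adjusted p = 0.0435). That call was lost with the clone block (0.0583). Gyg, glycogenin, the protein primer on which glycogen chains start, had 11.3 and 8.71 TPM in Hep_3D, against 34.4 and 37.3 TPM in Bil_2D. It fell by 1.75 (limma adjusted p = 0.00595) and by 0.98 with size factors (adjusted p = 0.0323). The size-factor call of Gyg was lost with any single library left out (fold changes from -1.13 to -0.83). In the glycogen synthesis list of 7 genes tested, 2 rose and 3 fell, and with size factors 4 were called higher and 1 lower. The shares of all genes were 6.8% and 51.9%, and 11.9% and 9.54% with size factors. The list's median log2 fold change was 0.16 in TPM and 0.96 with size factors. Fewer of its genes were called with size factors when any single library was left out. Without Bil_2D replicate 1 or 2, 1 gene of the list rose, and without Bil_2D replicate 2, 1 fell.

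The liver phosphorylase was scarce in both states. Pygl (ENSMUSG00000021069.17, chromosome 12, 70190811 to 70231488, minus strand) had 2.96 TPM (replicate 1) and 0.412 TPM (replicate 2) in Hep_3D, against 0.471 and 0.259 TPM in Bil_2D. Only Hep_3D replicate 1 passed 1 TPM, the groups overlapped, and the gene was not tested. In the fit without a filter its log2 fold change was 0.80 (limma adjusted p = 0.345). Hep_3D replicate 1 was also the library with 178 TPM of the fibroblast and stellate marker Dcn, against at most 2.79 TPM elsewhere. The other 7 markers of that list reached at most 1.17 TPM in any library, and a part of these cells in the Pygl value was not tested.

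Pygb (ENSMUSG00000033059.7, chromosome 2, 150786735 to 150831758, plus strand), the brain form, was the main phosphorylase transcript in every library. It had 22.4 and 18.4 TPM in Hep_3D, against 30.1 and 30 TPM in Bil_2D. Both Hep_3D libraries lay below the Bil_2D libraries, which were nearly equal. Pygb averaged 20.4 ± 2.77 TPM in Hep_3D and 30.1 ± 0.0636 TPM in Bil_2D (SD, n = 2 each) and fell by 0.54 on the log2 scale (SE 0.16, limma adjusted p = 0.0429). This was less than the median fall of all genes, and on the size-factor scale the sign turned (0.24, adjusted p = 0.303). The TPM-scale call was lost without any single library (adjusted p from 0.0604 to 0.157).

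Pygl made up 11.7% and 2.19% of the summed Pygl and Pygb TPM in Hep_3D, against 1.54% and 0.855% in Bil_2D (exact two-sided permutation test of the log2 ratio, p = 0.333, the smallest possible). Pygm, the muscle form, had 0.0282 and 0.202 TPM in Hep_3D, against 0.462 and 0.649 TPM in Bil_2D. Annotated transcripts of Pygb shared 38 of 4774 words of 31 bases with Pygm and none with Pygl. The 3 phosphorylases together came to 25.3 and 19 TPM in Hep_3D, against 31 and 30.9 TPM in Bil_2D, and after size-factor scaling to 33 and 25.8 in Hep_3D, against 22.8 and 23.9 in Bil_2D. Of the glycogen breakdown list, 7 of 10 genes were tested and 5 fell, while 0 rose by limma (0 at an unadjusted p under 0.05). Of all genes tested, 51.9% were called lower and 6.8% higher. The list's median log2 fold change was -0.67, near the -0.73 of all genes tested. With size factors 1 of the list was called lower, beside 9.54% of all genes. This was Phka2, a regulatory subunit of phosphorylase kinase, with 6.92 and 6.61 TPM in Hep_3D, against 19.8 and 19.7 TPM in Bil_2D (log2 fold change -1.42, limma adjusted p = 0.00606, or -0.67 and 0.0453 with size factors). Its size-factor call was lost with any single library left out (fold changes from -0.70 to -0.64). With single libraries left out, 1 or 2 genes of this list fell.

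**Figure D3:**
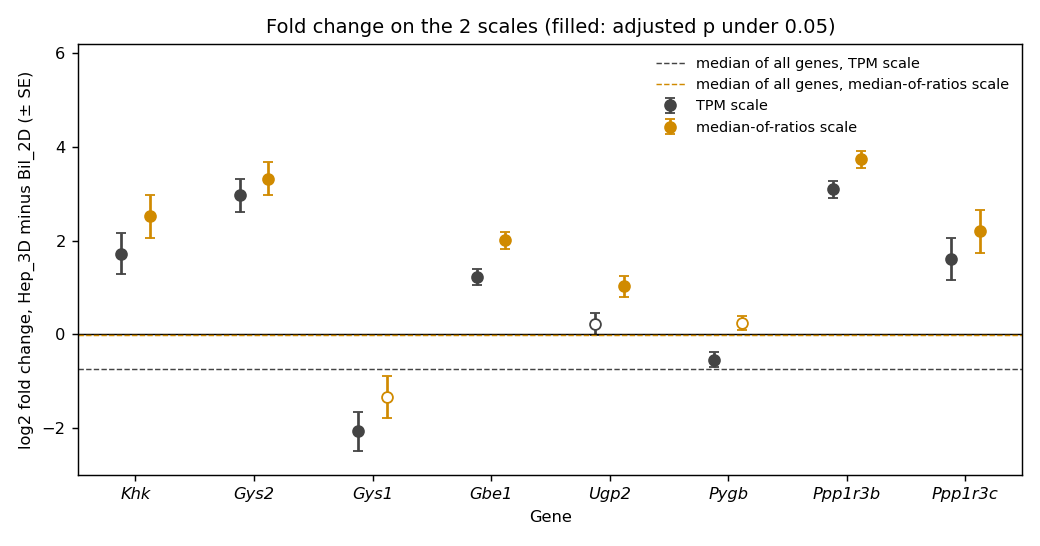
Log2 fold changes (Hep_3D minus Bil_2D, ± SE) of the 8 genes tested, from TPM in grey and after median-of-ratios scaling in amber, with filled points for an adjusted p under 0.05 and dashed lines at the median of all genes. The 5 genes that rose stand above 0 on both scales, Gys1 stands below 0 on both, and Pygb changes sign. The value of Gys2 depends on the pseudocount of 1, since its Bil_2D libraries are listed at 0.

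Among the glycogen-targeting subunits, Ppp1r3b, the form known from liver, differed most. Ppp1r3b (ENSMUSG00000046794.9, chromosome 8, 35375739 to 35388139, plus strand) had 20.6 and 24.2 TPM in Hep_3D, against 1.73 and 1.73 TPM in Bil_2D. Both groups were tight and far apart. It averaged 22.4 ± 2.52 TPM in Hep_3D and 1.73 ± 0.00242 TPM in Bil_2D (SD, n = 2 each), a ratio of means of 13 and a rise of 3.10 on the log2(TPM + 1) scale (SE 0.18, limma adjusted p = 0.00354). The rise was 3.73 with size factors (adjusted p = 0.00263). It was called under each of the 19 alternatives run, the only one of the 9 genes for which that held.

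Ppp1r3c, a subunit also found in muscle and other tissues (ENSMUSG00000067279.3, chromosome 19, 36731731 to 36736653, minus strand), had 4.15 and 10 TPM in Hep_3D, against 1.93 and 1.07 TPM in Bil_2D. The Hep_3D libraries lay higher, with a wide gap between the clones. It averaged 7.08 ± 4.15 TPM in Hep_3D and 1.5 ± 0.611 TPM in Bil_2D (SD, n = 2 each), a rise of 1.61 on the log2 scale (SE 0.45, limma adjusted p = 0.0386). After size-factor scaling it was 2.20 (adjusted p = 0.0415). The call was lost with the clone block (adjusted p = 0.054, or 0.0534 with size factors). It was also lost without Hep_3D replicate 2 (0.097), Bil_2D replicate 1 (0.0956) or Bil_2D replicate 2 (0.151).

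Ppp1r3b took 83.3% and 70.7% of the summed TPM of both subunits in Hep_3D, against 47.2% and 61.9% in Bil_2D (exact two-sided permutation test of the log2 ratio, p = 0.333). Of the remaining family members, Ppp1r3e alone was tested. It had 7.23 and 9.65 TPM in Hep_3D, against 8.8 and 12.2 TPM in Bil_2D (log2 fold change -0.28, adjusted p = 0.373), which made it the most abundant subunit in Bil_2D. Ppp1r3a was listed at 0 in all 4 libraries, Ppp1r3d reached at most 0.215 TPM, Ppp1r3f at most 0.998 TPM and Ppp1r3g at most 0.288 TPM. The 7 subunits together came to 32.8 and 44.5 TPM in Hep_3D, against 13.5 and 16.1 TPM in Bil_2D, and after size-factor scaling to 42.8 and 60.1 in Hep_3D, against 9.92 and 12.5 in Bil_2D. The phosphatase they bind is encoded by Ppp1ca, Ppp1cb and Ppp1cc. These 3 genes fell (log2 fold changes -1.31, -0.81 and -1.08), beside a median of -0.73 for all genes, and 0 of them passed limma's test with size factors (adjusted p = 0.121, 0.984 and 0.335; 1 of the list's genes was lower at an unadjusted p under 0.05). All 3 fall outside the rule for named genes and were picked with their values in view.

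Glucose 6-phosphate links glycogen to blood glucose, and of the genes that make, release or regulate it Gckr, G6pc and Slc37a4 rose while Hk1 fell. Of 7 genes tested in the list for hexose phosphate entry and exit, 4 rose and 3 fell, and with size factors 4 were called higher and 1 lower. The shares of all genes were 6.8% and 51.9%, and 11.9% and 9.54% with size factors. The list median was 1.37, and 2.17 with size factors. Only 1 rose without either Bil_2D replicate. Both Gckr and G6pc were under 1 TPM in both Bil_2D libraries and entered the test through their Hep_3D values alone, so their calls, and the list's counts and median, follow in part from the filter. Gckr, a regulatory protein of hepatocytes that responds to fructose 1-phosphate, had 3.82 and 8.87 TPM in Hep_3D, against 0.138 and 0.587 TPM in Bil_2D (log2 fold change 2.36, limma adjusted p = 0.0139). Its call was lost without Bil_2D replicate 1 (0.073) or Bil_2D replicate 2 (0.0563). Hk1, the hexokinase of most tissues, had 19.9 and 14.2 TPM in Hep_3D, against 87 and 78 TPM in Bil_2D (-2.22, limma adjusted p = 0.00537, or -1.43 and 0.0172 with size factors). The size-factor call of Hk1 was lost without Hep_3D replicate 2, Bil_2D replicate 1 or Bil_2D replicate 2 (fold changes -1.23, -1.39 and -1.47). G6pc, the phosphatase that frees glucose, had 34.5 and 25.3 TPM in Hep_3D, against 0.362 and 0 TPM in Bil_2D (adjusted p = 0.00354). Slc37a4, which carries glucose 6-phosphate into the endoplasmic reticulum, had 88.8 and 175 TPM in Hep_3D, against 46 and 49.4 TPM in Bil_2D (1.37, adjusted p = 0.0309). Without Bil_2D replicate 1 or 2 it lost its call (0.126 and 0.106).

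**Figure D4:**
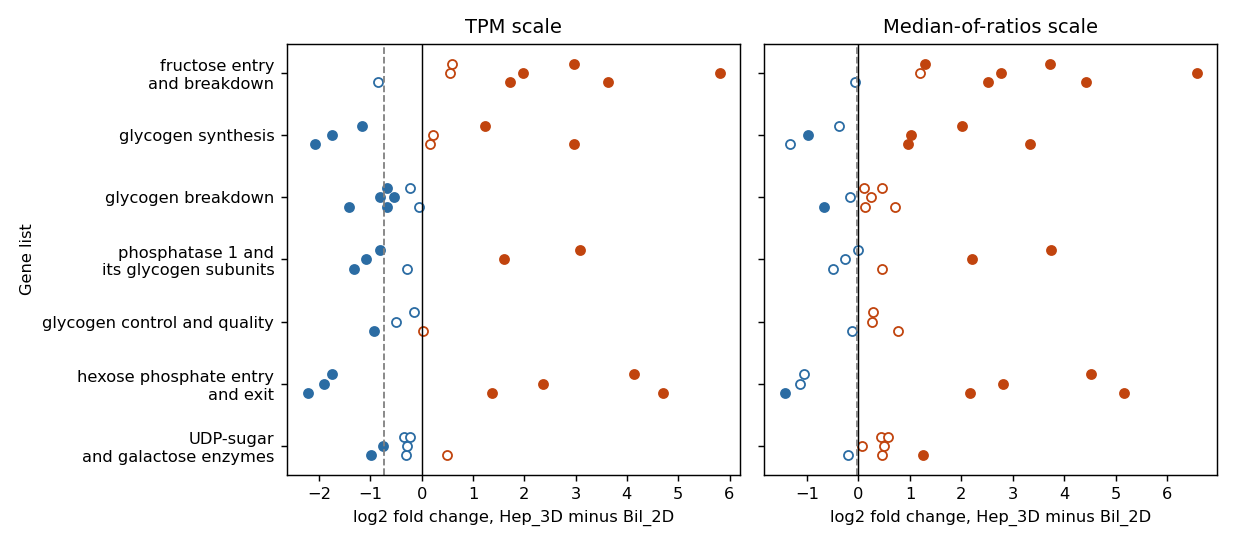
Log2 fold changes (Hep_3D minus Bil_2D) of the genes tested in 7 lists of fructose, glycogen and hexose phosphate metabolism, the 9 genes included, from TPM (left) and after median-of-ratios scaling (right). Each point is a gene, filled for an adjusted p under 0.05, orange above 0 and blue below, and the dashed line is the median of all genes tested. Fructose genes lie mostly to the right on both scales, and the glycogen breakdown genes lie around the dashed line.

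Over all 7 lists, leaving out the 9 genes, 38 genes were tested, of which 8 rose and 15 fell. Of all genes tested, 6.8% were called higher and 51.9% lower. With size factors 11 of the 38 were called higher and 3 lower (Gyg, Phka2 and Hk1), beside 11.9% and 9.54% of all genes. The 38 genes had a median log2 fold change of -0.30, and 0.44 with size factors. Leaving out Bil_2D replicate 1 left 4 that rose and 8 that fell, and leaving out Bil_2D replicate 2 left 4 and 6. Groups that did not overlap were counted among the 9 genes as well. On the TPM scale 5 genes were higher in both Hep_3D libraries and 2 lower, beside 11.1% and 71.9% of all genes tested. With size factors Gys1 alone was lower and the other 8 were higher, beside 34.7% and 33.6% of all genes.

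The difference between states was then read within each clone, with 1 library per clone and state and so no test. In clone 15C7 and clone 19H5, Khk differed by 1.41 and 2.03, Gys2 by 3.39 and 2.54, Gbe1 by 1.05 and 1.41 and Ppp1r3b by 2.99 and 3.20 on the log2(TPM + 1) scale. Gys1 differed by -2.24 and -1.90 and Pygb by -0.41 and -0.67. The sign was the same in both clones for these 6 genes. On the size-factor scale Pygb had the opposite sign, at 0.38 in clone 15C7 and 0.099 in clone 19H5. Ppp1r3c had the widest spread of the genes tested, at 0.81 in clone 15C7 and 2.41 in clone 19H5. Ugp2 was at -0.17 in clone 15C7 and 0.61 in clone 19H5, and on the size-factor scale at 0.65 and 1.40. Pygl was at 1.43 and 0.17.

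**Figure D5:**
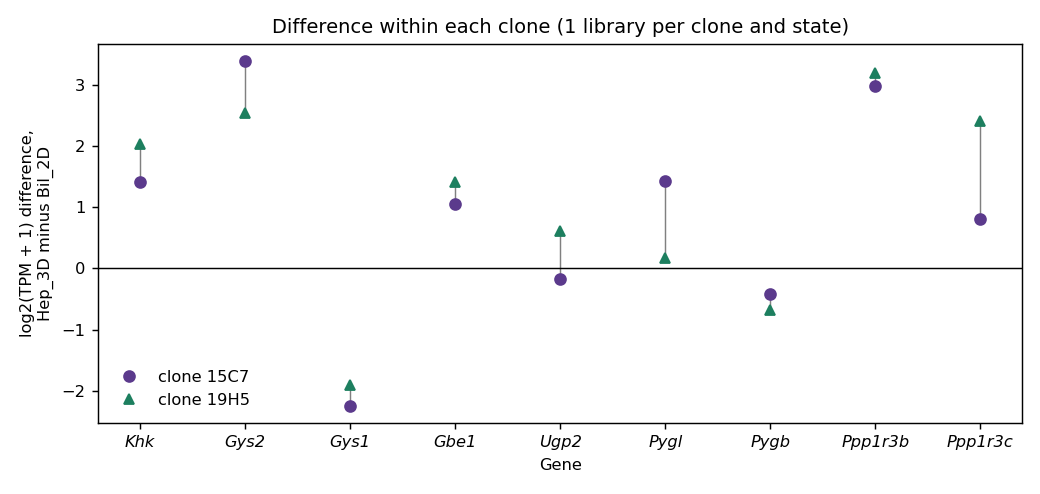
Difference between the Hep_3D and the Bil_2D library of the same clone, in log2(TPM + 1), for each of the 9 genes, with circles for clone 15C7 and triangles for clone 19H5. Both clones lie on the same side of 0 for every gene but Ugp2, which is at -0.17 in clone 15C7 and 0.61 in clone 19H5.

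Promoters were compared for the genes with an entry in the RefSeq promoter table (GRCm38.p6), which were 7 of the 9 (not Gys2 or Ppp1r3b). The stretches below cover the 250 bases before the RefSeq start of the genes that rose and had an entry (Khk, Gbe1 and Ppp1r3c) and of Gys1, which fell. They are shown because sugar-responsive factors bind E-boxes, and capitals mark matches to the motifs searched.
Khk, chr5:30921309-30921558, plus strand: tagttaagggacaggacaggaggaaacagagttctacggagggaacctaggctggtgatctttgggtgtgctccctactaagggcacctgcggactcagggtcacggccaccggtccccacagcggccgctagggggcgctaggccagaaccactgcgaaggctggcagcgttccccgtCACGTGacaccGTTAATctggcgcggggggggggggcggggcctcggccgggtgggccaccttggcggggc
Ppp1r3c, chr19:36736605-36736854, minus strand: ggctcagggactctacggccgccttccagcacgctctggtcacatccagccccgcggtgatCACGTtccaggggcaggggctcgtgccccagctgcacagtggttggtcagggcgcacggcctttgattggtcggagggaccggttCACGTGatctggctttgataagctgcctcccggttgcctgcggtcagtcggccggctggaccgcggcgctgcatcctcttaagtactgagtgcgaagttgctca
Gbe1, chr16:70313699-70313948, plus strand: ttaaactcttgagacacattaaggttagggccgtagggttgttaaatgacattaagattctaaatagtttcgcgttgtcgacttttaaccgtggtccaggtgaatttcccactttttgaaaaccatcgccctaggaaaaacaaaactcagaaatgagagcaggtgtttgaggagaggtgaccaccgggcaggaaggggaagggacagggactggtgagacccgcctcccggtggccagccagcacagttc
Gys1, chr7:45434589-45434838, plus strand: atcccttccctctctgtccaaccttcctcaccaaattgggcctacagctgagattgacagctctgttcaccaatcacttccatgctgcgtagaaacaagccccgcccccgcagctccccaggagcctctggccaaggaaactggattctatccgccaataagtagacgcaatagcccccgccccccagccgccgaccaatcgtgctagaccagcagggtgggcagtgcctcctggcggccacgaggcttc

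Motifs were searched on both strands in windows of 300 bases, from 250 before to 50 after the start. The E-box CACGTG stood in the windows of Khk and Ppp1r3c, 2 of the 7 genes, and in 7.15% of all 32851 promoters of the table. The hypoxia element core ACGTG, which every CACGTG contains, stood in 5 of the 7 genes (Khk, Ppp1r3c, Pygl, Pygb and Ugp2) and in 19.6% of all promoters. Ugp2 had more than 1 entry (upstream stretches chr11:21371268-21371517 and chr11:21370630-21370879), and ACGTG stood only at the former. A gene was counted where any of its entries matched, while the shares are of single promoters, so the units differ. GTTAAT, a part of the HNF1 site, stood in the Khk window, 1 of the 7, and in 7.1% of all promoters. CAAAGTC, a part of the HNF4 site (4.44% of all), TGACGT, most of the cyclic AMP element (7.51%), and TATAAA, the TATA box (13.6%), were found for 0 of the 7 genes. Genes that rose were thus found with and without an E-box in this window, and a match in letters is a description, not a binding site.

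For each gene tested, the gene with the most similar pattern was the one at the smallest Euclidean distance in mean-centred log2(TPM + 1) over the 4 libraries. It was Aldh6a1 for Khk (distance 0.206), Slc10a6 for Gys2 (0.215), B9d1 for Gys1 (0.131), Bcat2 for Ppp1r3b (0.115) and Tmem86b for Ppp1r3c (0.316). With 4 libraries such likeness is weak: 19 genes lay within 0.5 of Khk, 38 within 0.5 of Ppp1r3b and 4316 within 0.5 of Pygb.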

How the data were processed

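The authors deposited a table of TPM for 24493 gene symbols in 4 libraries, and each column summed to 1000000. Salmon, DESeq2 and mm10 are named in the submitters' processing notes without versions or roles, and the transcript annotation was not given in the sources used here. Per the labels' protocols, extraction used a Qiagen kit and Novogene made the libraries. Depth is unknown and no count model was used.

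Groups and replicates came from the sample titles. Nothing in the labels tells whether the libraries came from separate experiments or animals, and p-values then cover only the spread between these 4 samples, part of which may be technical. The clone labels pair replicate 1 with replicate 1 and 2 with 2. Across genes, the 2 libraries of a clone deviated from their groups together (r = 0.414).

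The 12336 genes that reached 1 TPM in 2 or more libraries were tested with limma 3.58.1 in R 4.3.3 (lmFit, then eBayes with a trend) on log2(TPM + 1), Hep_3D minus Bil_2D without other terms (2 residual degrees of freedom, prior 2.29). Log2 fold changes on this scale understate the change of low genes. P-values were adjusted by the Benjamini-Hochberg method over all genes tested. The size-factor scale divides TPM by median-of-ratios factors from genes at 1 TPM or more throughout. Further alternatives were quantile normalization, removal of the 50 most abundant genes, a pseudocount of 0.1 or 5, a filter of 5 TPM or none, eBayes robust or without a trend, the clone as replicate block, and each library left out. In those last runs the filter and scaling of all 4 libraries stayed, and the lone sample was assumed to vary as the other group does. The fit was tested on simulated data.

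The 9 genes and the gene lists were chosen with earlier results of these data known. Named without exception were the 9 genes. From the lists, those that passed on both scales in the same direction and the other isoforms were named, and exceptions are marked. Some list genes are counted but not reported here by name. Positions are from GENCODE M21 (GRCm38) and promoters from RefSeq. Words of 31 bases were compared with all GENCODE M21 transcripts on both strands.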

Additional observations from a re-analysis of the deposited data

Results flagged for a closer look

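Ugp2 stood out because its difference between states had opposite signs in the clones. In clone 15C7 the Hep_3D library had 64.6 TPM, against 72.6 TPM in the Bil_2D library (-0.17 on the log2 scale), and in clone 19H5 it had 75 TPM, against 48.8 TPM (0.61). The difference between the clones was -0.78 and was not tested, since 1 library per clone and state leaves no spread. With size factors both clones had the same sign (0.65 and 1.40).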

How the results depend on the processing

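Of the 9 genes, 8 were tested, and 5 rose and 2 fell. The fit without a filter tested all 9. With a filter of 5 TPM, 6 were tested, without Gys2 and Ppp1r3c, and Khk, Gbe1 and Ppp1r3b kept their calls. The number that rose was 3 without a filter and 3 with a filter of 5 TPM, and ranged from 2 to 5 with single libraries left out, or from 1 to 5 with size-factor scaling as well; the other settings gave 4 to 6. The number that fell was 0 after size-factor scaling, quantile normalization or without the 50 most abundant genes, 1 without a filter, 1 without an eBayes trend, 1 with size-factor scaling and the replicate block, and 0 to 1 with single libraries left out (0 with size-factor scaling as well). The replicate block alone gave 4 and 2. The block changed the calls of Ppp1r3c on both scales and of Gys1 and Ugp2 with size factors, and no other call among the 9 genes and the 11 list genes that passed on both scales. Among the other list genes, 8 rose and 15 fell, beside 6.8% and 51.9% of all genes tested. Leaving out single libraries gave 4 to 7 higher and 6 to 12 lower, or 2 to 6 and 0 to 1 with size factors. The number that fell was 3 after size-factor scaling (4 with the replicate block), 5 after quantile normalization and 6 without the 50 most abundant genes.

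Pygb turned to 0.24 after size-factor scaling, with and without the replicate block, to 0.16 after quantile normalization, and to 0.13 to 0.35 with single libraries left out on the size-factor scale (0.13 and 0.35 without Hep_3D replicates 1 and 2, 0.21 and 0.28 without those of Bil_2D). Ugp2, at 0.22, turned to -0.060 without Bil_2D replicate 2, and ranged up to 0.50 with other libraries left out. The causes were not tested. The difference in the Gys2 to Gys1 ratio was 5.04, and 8.38 and 2.77 with pseudocounts of 0.1 and 5 (4.13 to 5.94 with single libraries left out; without a pseudocount it has no value). That of Pygl to Pygb was 1.34 (0.76 to 2.23 over pseudocounts, 0.73 to 1.95 with libraries left out), and that of Ppp1r3b to Ppp1r3c 1.48 (1.17 to 1.53, and 1.04 to 1.92). Depth is unknown, so no counting error can be given for low values such as those of Pygl and Pygm, which did not pass in the fit without a filter (adjusted p = 0.345 and 0.054 by limma).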

Other observations

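The median log2 fold change was -0.30 for the list of UDP-sugar and galactose enzymes and -0.32 for that of glycogen control, beside -0.73 for all genes tested. With size factors the medians were 0.45 and 0.27, beside -0.02 for all genes, and neither list was tested against other genes. Of 7 UDP-sugar and galactose genes tested, 2 fell on the TPM scale, Ugdh and Uxs1, and 0 rose by limma (0 at an unadjusted p under 0.05). Of all genes tested, 51.9% were called lower and 6.8% higher, and with size factors 9.54% and 11.9%. Ugdh, which turns UDP-glucose into UDP-glucuronate, had 130 and 176 TPM in Hep_3D, against 248 and 263 TPM in Bil_2D (log2 fold change -0.75, adjusted p = 0.0302), and 0.06 with size factors (adjusted p = 0.854). Galm, which interconverts the forms of galactose and glucose, was the member called higher with size factors, with 12.5 and 18.2 TPM in Hep_3D, against 12 and 9.16 TPM in Bil_2D (1.25 there, adjusted p = 0.04). Gsk3a, a kinase that inactivates glycogen synthase, was the 1 gene of 4 in the control list that fell, with 46.1 and 47 TPM in Hep_3D, against 90.2 and 88.1 TPM in Bil_2D (-0.92, adjusted p = 0.00733, or -0.12 and 0.521 with size factors). These genes were picked with their values in view.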
